A study of Caenorhabditis elegans with 71 samples.

Results

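The ugt genes of the nematode Caenorhabditis elegans encode UDP-glucuronosyltransferases, and 64 of the 19120 genes kept from the deposited table carry a name made of ugt and a number. They were chosen by that name and by no measured value. All 64 matched a protein-coding entry of the WBcel235 annotation, with 40 on chromosome V, 12 on IV, 5 on I, 4 on X, 2 on III and 1 on II. Coordinates are not given, because no source used here names the build of the files.

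UDP-glucuronosyltransferases are membrane enzymes of the endoplasmic reticulum that join a sugar from a UDP-sugar donor to a small molecule. The product is more soluble in water and can be carried out of the cell by export pumps, so the enzymes count as phase 2 of detoxification, after oxidation by cytochrome P450 enzymes. In nematodes glucose is a common donor sugar, and foreign compounds and self-made small molecules are both found as glucosides. Many C. elegans members are active in the intestine, the tissue that meets the bacterial food first. The substrates of most single members are not known, and no role is given below for a member alone.

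Larvae of 4 populations were hatched without food, which holds them in arrest at the first larval stage, and were then placed on plates with the Escherichia coli strain OP50. The lin-4(e912) mutant at 20C was sampled every 2 h until 48 h (25 libraries, DH4 in the labels), and wild-type N2 at 25C every 1.5 h until 28.5 h (20 libraries, DH3). Wild-type N2 at 20C was sampled every 2 h until 38 h (20 libraries, DH2) and, in an independent population, between 38 and 48 h (6 libraries, DH5). lin-4 is a microRNA that times larval cell fates, and its own level was not analysed here. Each library held poly(A) RNA of whole larvae at 1 time point of 1 population. Replicates of a time point are lacking within a population, so every error below is the spread between time points or between populations, which may in part be technical. Each temperature and genotype came with its own population, and their effects cannot be told apart. In whole larvae, fewer cells of a type and less RNA per cell cannot be told apart either.

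Values are RPKM, read counts divided by gene length and library size, as the authors deposited them. Depth estimated from the steps between low values was 12.3 to 36.5 M reads per library, with medians of 28.97 M reads in DH4, 23.69 in DH3, 19.78 in DH2 and 30.35 in DH5. Every list of cell type markers examined (intestine, epidermis, body wall muscle, pharynx, neuron, germline, excretory cells) was above 0 for each of its genes in at least 1 library of each group. At 38 h both 20C populations of wild type have a library, and there 3 of 50 ugt members with a mean of at least 1 RPKM differed by 2-fold or more, against 1.54% of all 12275 genes. These were ugt-13, ugt-10 and ugt-57.

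The family spanned a wide range of levels per length. 61 members reached 1 RPKM in at least 1 library and 34 did so in all 71. ugt-14, ugt-27 and ugt-35 stayed below 1 RPKM everywhere, with highest values of 0.976, 0.523 and 0.407 RPKM. The highest mean over all libraries was that of ugt-22 with 176 RPKM, followed by ugt-62 with 60.4, ugt-58 with 59.1, ugt-46 with 54.7, ugt-12 with 42.9 and ugt-16 with 40.6. ugt-22 lay between 2.26 and 304 RPKM and ugt-62 between 11.2 and 226 RPKM, while ugt-46 stayed between 20.0 and 89.2 RPKM. The summed level of all 64 members ran from 515 RPKM in arrested wild type at 20C to 1617 RPKM in lin-4 at 46 h.

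**Figure D1:**
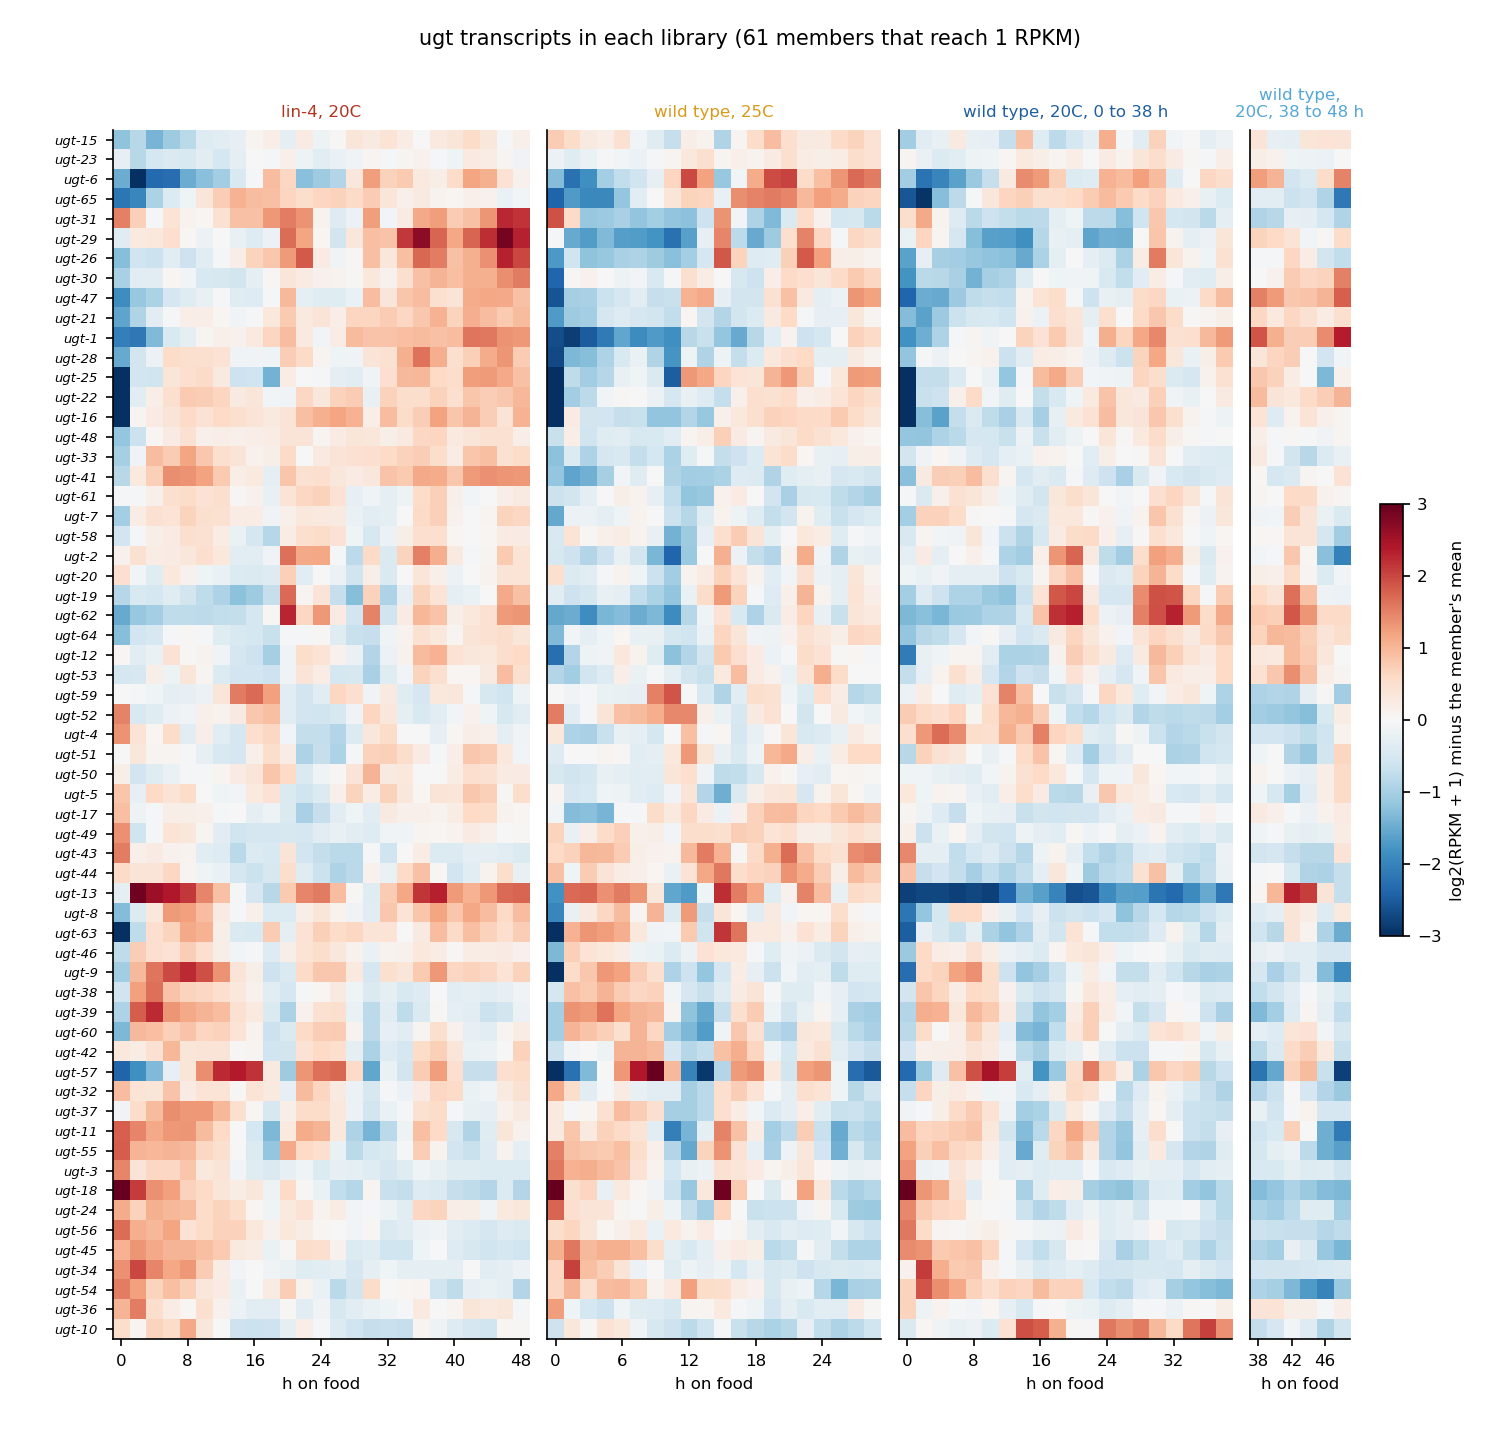
Each row is 1 of the 61 ugt members that reach 1 RPKM, ordered by likeness of their courses, and each column is 1 library, in time order (hours on food) within its population; color gives log2(RPKM + 1) minus the member's mean over all libraries, cut at -3 and 3. The first column of lin-4, wild type at 25C and wild type at 20C is pale to dark blue for ugt-22, ugt-16, ugt-25, ugt-9 and ugt-63 and red for ugt-18, and ugt-13 is blue through the whole 0 to 38 h population at 20C.

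Feeding changed the composition of the family within the first sampled interval. The highest-expressed member of fed larvae, ugt-22, was close to its lowest level in arrest. At 0, 2 and 6 h lin-4 had 5.91, 118 and 207 RPKM of it. Wild type at 25C had 2.26, 72.3 and 142 RPKM at 0, 1.5 and 4.5 h. Wild type at 20C had 2.94, 93.3 and 165 RPKM at 0, 2 and 6 h. No fed library came near an arrested one, and the share of ugt-22 in the summed ugt level moved with it, at 16.6, 15.7 and 18.4% in fed lin-4, fed wild type at 25C and fed wild type at 20C against 0.8, 0.4 and 0.6% in the same populations at 0 h. The whole sum was 1249, 905 and 896 RPKM in these fed larvae and 707, 546 and 515 RPKM in the arrested ones.

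Changes were tested with limma over the 3 populations that have a 0 h library, with population as a block. Sizes are on the log2(RPKM + 1) scale, where the changes of weakly expressed genes come out too small. A call required a size of at least 1 log2 and a p-value under 0.05 after Benjamini-Hochberg adjustment over all genes tested. Of the 61 members tested at the first sampled time on food (2 h at 20C, 1.5 h at 25C), 16 rose and 4 fell, against 7.38% of all 13592 genes called higher and 6.97% called lower. The median change was 0.24 log2 over the members and -0.06 over all genes. Between fed larvae, taken at 6 h in the 20C series and 4.5 h in the other, and arrested larvae, 21 members rose and 3 fell of 61, against 8.86% of all 13370 genes called higher and 10.1% called lower. Here the median was 0.55 over the members and -0.15 over all genes. Both comparisons use the same 0 h libraries.

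ugt-22 rose by 4.39 ± 0.17 log2 (SE, adjusted p = 0.0026) at the first time and by 5.25 ± 0.17 (adjusted p = 0.00088) in fed larvae. ugt-16 was at 45.2, 22.5 and 20.4 RPKM in fed lin-4, fed wild type at 25C and fed wild type at 20C, against 1.67, 2.65 and 0.916 RPKM in arrest. Its groups did not overlap, and the change was 3.40 ± 0.21 at the first time (adjusted p = 0.0039) and 3.43 ± 0.28 when fed (adjusted p = 0.0022). ugt-9 was at 73.1, 45.5 and 42.2 RPKM in the fed libraries in the same order and at 8.12, 0.839 and 2.89 RPKM at 0 h, without overlap, with 3.72 ± 0.33 when fed (adjusted p = 0.0023). ugt-63, at 12.8, 19.7 and 4.52 RPKM when fed, was nearly undetected in arrest at 0.033, 0.088 and 0.582 RPKM (fed change 3.26 ± 0.47, adjusted p = 0.0062). ugt-25 followed with 2.97 ± 0.22, ugt-57 with 2.83 ± 0.24 and ugt-8 with 2.63 ± 0.14.

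Some members reached their high level at once and others in steps. ugt-60 was at 33.5, 34.4 and 24.6 RPKM at the first time on food in lin-4, wild type at 25C and wild type at 20C, above its fed values of 27.9, 27.5 and 19.2 RPKM in each, and at 5.82, 7.58 and 9.05 RPKM at 0 h. ugt-46 had the same order, with 89.2, 87.5 and 80.9 RPKM at the first time, 71.2, 66.1 and 58.7 RPKM when fed and 30.5, 20.0 and 24.0 RPKM at 0 h. ugt-39 and ugt-38, both on chromosome V, rose at the first time by 2.36 ± 0.20 and 1.54 ± 0.17. ugt-57 instead passed the threshold only when fed: it was at 3.59, 2.44 and 6.61 RPKM at the first time and at 12.9, 15.3 and 29.1 RPKM later. ugt-12 and ugt-1, ugt-21, ugt-41, ugt-64 and ugt-65 were likewise called at the later time alone, and ugt-26 and ugt-34 at the first time alone. These differences between the times were not tested. Of the highest-expressed members, ugt-62 changed by 0.38 ± 0.18 when fed (adjusted p = 0.14) and ugt-58 by 0.59 ± 0.16 (adjusted p = 0.035, below the minimum size), so neither was called.

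The opposite course was that of ugt-18, which was called lower at both times. Larvae of lin-4 had 63.2, 11.8 and 6.03 RPKM of it at 0, 2 and 6 h. Wild type at 25C had 48.3, 3.14 and 1.56 RPKM at 0, 1.5 and 4.5 h, and wild type at 20C 25.0, 6.48 and 3.15 RPKM at 0, 2 and 6 h. Arrested and fed libraries did not overlap, and the change was -2.56 ± 0.36 (adjusted p = 0.01) at the first time and -3.37 ± 0.32 (adjusted p = 0.0027) when fed. ugt-31 fell by 1.67 log2 in fed larvae (SE 0.42, adjusted p = 0.029) and ugt-36 by 1.15 (SE 0.27, adjusted p = 0.024). ugt-6, ugt-49 and ugt-3 were called lower at the first time, with -1.25 ± 0.19, -1.20 ± 0.27 and -1.05 ± 0.23, and had no such call at the later one. The call of ugt-3 was lost without any 1 of the 3 populations, and those of ugt-49 and ugt-6 without the 25C population or without lin-4. In fed larvae that of ugt-31 was lost without lin-4 and that of ugt-36 without lin-4 or the 25C population, and both with 4 h and 3 h taken as fed.

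**Figure D2:**
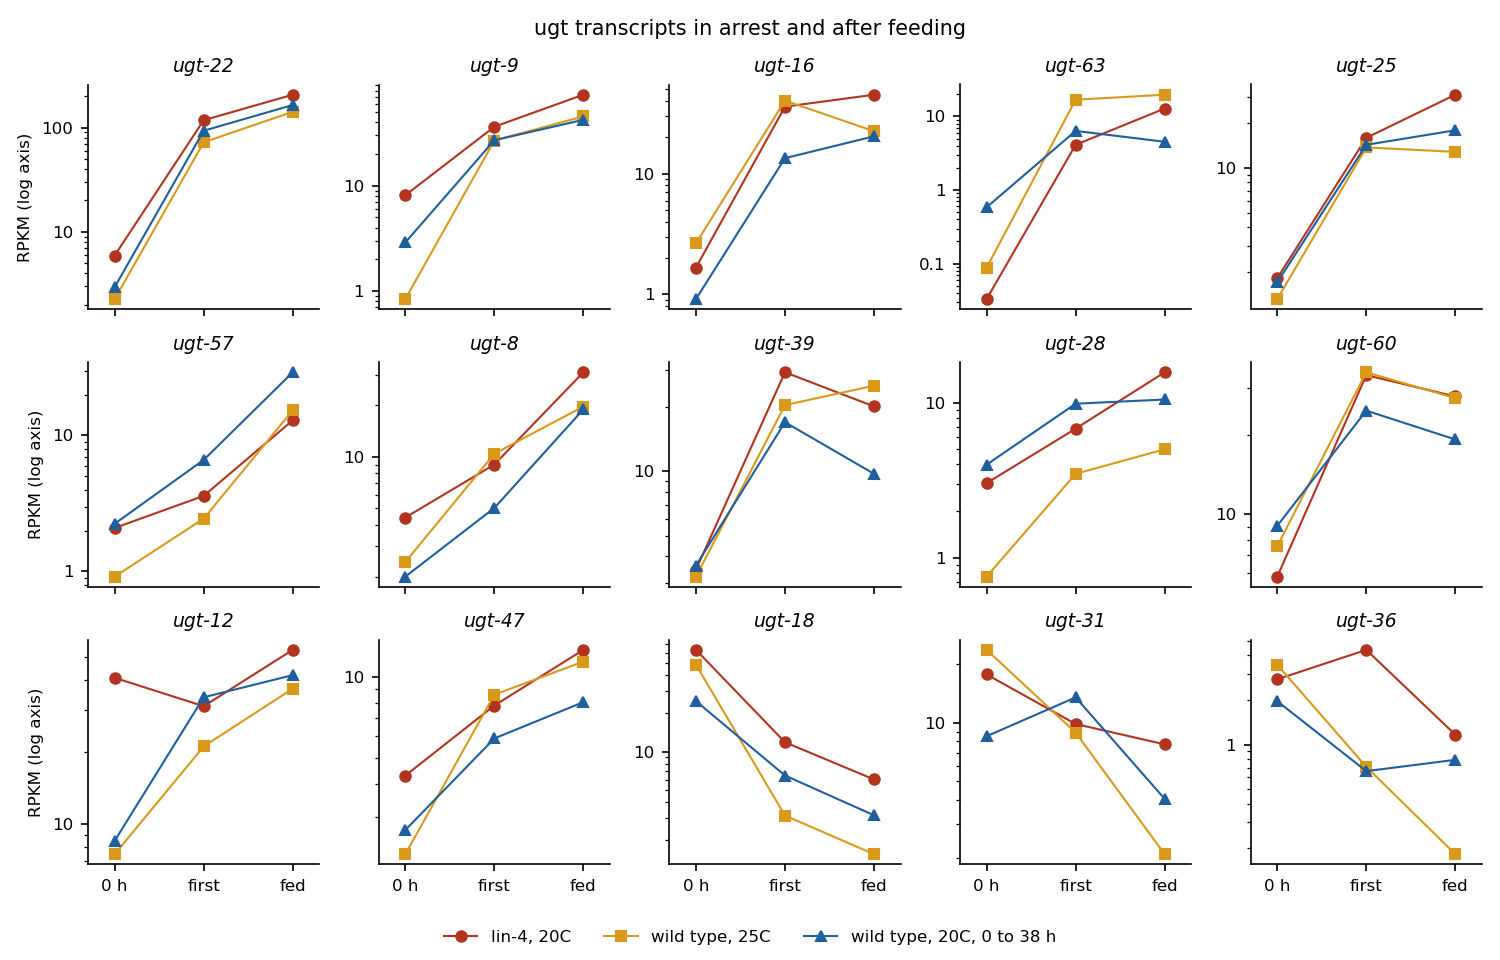
RPKM on a log axis at 0 h (arrest), at the first sampled time on food and in fed larvae for the 12 ugt members with the largest called rise and the 3 called lower; each point is 1 library and lines join the libraries of 1 population. ugt-22 lies at 142 to 207 RPKM in fed larvae and at 2.26 to 5.91 RPKM at 0 h, and ugt-18 at 1.56 to 6.03 RPKM in fed larvae and 25.0 to 63.2 RPKM at 0 h.

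The calls rest on 3 populations. Without the 25C population 8 members were higher and 2 lower at the first time, beside 344 and 298 of all 13738 genes. Without lin-4 they were 12 and 1, beside 524 and 374 of 13518, and without wild type at 20C 15 and 7, beside 1128 and 1374 of 13344. In fed larvae 5 were lower without wild type at 20C, beside 1542 of 13271 genes. ugt-12 (1.57 ± 0.39, adjusted p = 0.026) lost its call without either wild-type population, without the block and with 4 h and 3 h taken as fed. At 0 h and when fed it was at 40.9 and 53.6 RPKM in lin-4. The values were 7.46 and 36.8 RPKM in wild type at 25C and 8.48 and 42.0 RPKM in wild type at 20C. Of 10 intestine markers, 3 were called higher in fed larvae and 0 lower by limma (the peptide transporter gene opt-2 by 2.44 ± 0.16, the brush border actin gene act-5 by 1.92 ± 0.17 and vha-6 by 1.11 ± 0.24). The median of the list was -0.13 log2, against -0.15 over all genes. At the first time 2 were higher, opt-2 and act-5, and 2 lower, ges-1 (-1.93 ± 0.20) and cpr-6 (-1.42 ± 0.29). The summed level of the list was 4121 to 5122 RPKM in fed and 2632 to 3980 RPKM in arrested larvae. Neuron markers, of which 0 of 4 were called by limma, summed to 674 to 779 RPKM in fed and 1111 to 1263 RPKM in arrested larvae, and excretory cell markers (1 of 3 higher, pgp-12) to 546 to 641 and 333 to 367 RPKM. Their part in the ugt results was not tested.

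Some members cycled over larval time, in which larvae shed their cuticle at repeated molts. Cycling was tested over the fed times, 6 to 38 h for the 20C series and 4.5 to 28.5 h for the other, 17 libraries each, as a cosine and sine beside a smooth course of time, and its size is the fitted range between peak and trough. The period was the one with the best mean fit over all genes, 14 h in lin-4, 7.75 h in wild type at 25C and 11.25 h in wild type at 20C. In lin-4, 17 of 56 members tested cycled, against 13.5% of all genes. The counts were 14 of 57 in wild type at 25C, against 10.9%, and 19 of 55 in wild type at 20C, against 13.7%. The median range over members was 0.74, 0.80 and 0.74 log2 in these series, and 0.32, 0.31 and 0.29 over all genes. ugt-2, ugt-6, ugt-29, ugt-55, ugt-57 and ugt-60 were called in all 3 series, 30 members in at least 1, and 28 were tested in all 3 and called in none, which does not show that they are constant. At 25C the call of ugt-55 was lost in 10 of 17 fits that left out 1 library and under 5 of 7 other settings, a pseudocount of 0.1 among them. That of ugt-29 was lost in 5 and that of ugt-6 in 2 of the 17 fits there.

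ugt-57 had the largest range of the family in lin-4 (2.25 ± 0.48, adjusted p = 0.0062) and at 25C (3.46 ± 0.58, adjusted p = 0.006), and 2.43 ± 0.36 (adjusted p = 0.0012) in wild type at 20C. Its lowest, median and highest values were 4.56, 26.7 and 84.8 RPKM in lin-4, with the high point at 14 h. They were 1.20, 19.3 and 137 RPKM at 25C, with the high point at 9 h, and 3.71, 24.3 and 90.5 RPKM in wild type at 20C, with the high point at 10 h. In each series the first wave was the highest and later waves stayed lower.

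ugt-2 cycled by 1.62 ± 0.33 in lin-4, 1.83 ± 0.31 at 25C and 2.39 ± 0.17 in wild type at 20C, where its lowest, median and highest values were 5.56, 14.0 and 44.7 RPKM. ugt-6 cycled by 1.54 ± 0.32, 1.70 ± 0.39 and 1.40 ± 0.32 in the same order of series. ugt-29 did so by 1.38 ± 0.35, 1.84 ± 0.44 and 1.60 ± 0.23, ugt-55 by 1.37 ± 0.30, 1.49 ± 0.40 and 1.67 ± 0.27, and ugt-60 by 1.13 ± 0.19, 1.61 ± 0.27 and 1.18 ± 0.23. The second-highest member, ugt-62, had a range of 1.17 ± 0.23 at 25C and 2.3 ± 0.3 in wild type at 20C (adjusted p = 0.012 and 0.00069) but was not called in lin-4 (1.28 ± 0.53, adjusted p = 0.15). It stayed at 16.5 to 31.6 RPKM until 14 h in wild type at 20C and then reached 226 RPKM at 20 h and 223 RPKM at 32 h. Of the lin-4 libraries, the one of 20 h came to 220 RPKM and the next highest, of 30 h, to 125 RPKM. The differences between series were not tested.

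**Figure D3:**
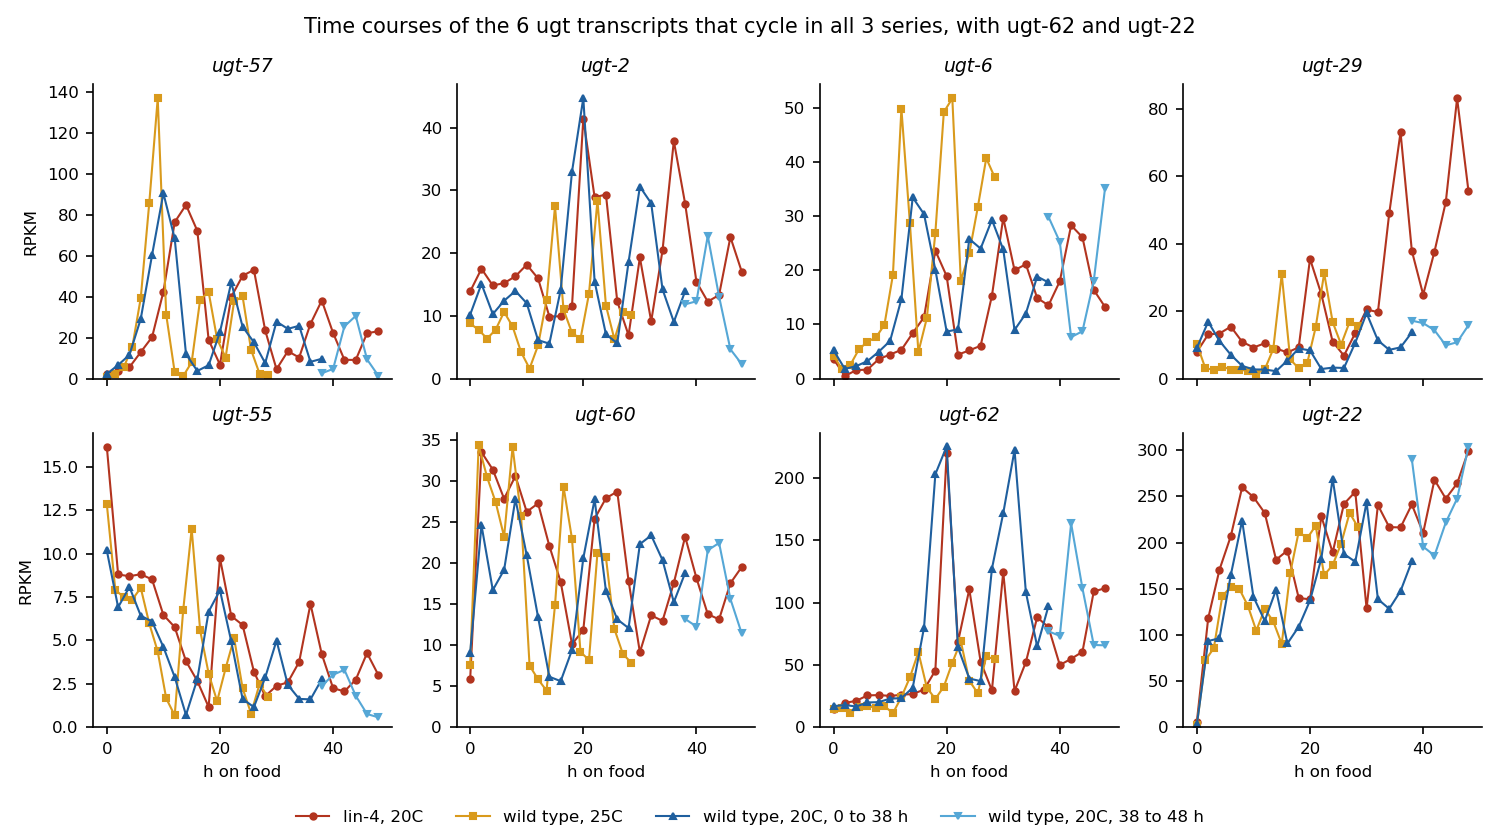
RPKM against hours on food for the 6 ugt members called as cycling in all 3 series, with ugt-62 and ugt-22; points are single libraries, joined within a population (lin-4 at 20C, wild type at 25C, wild type at 20C from 0 to 38 h and from 38 to 48 h). ugt-57 has its highest point at 14 h in lin-4, 9 h at 25C and 10 h in wild type at 20C, ugt-62 has peaks of 220 RPKM and above at 20C, and ugt-22 leaves its 0 h level at the first time on food and shows no called cycle.

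Further members with large ranges differed between the series, which was not tested. In lin-4, ugt-11 ranged by 2.11 ± 0.25, ugt-13 by 2.06 ± 0.22, ugt-59 by 1.53 ± 0.25, ugt-9 by 1.23 ± 0.19, ugt-51 by 1.20 ± 0.18 and ugt-12 by 1.18 ± 0.19. At 25C, ugt-18 ranged by 1.91 ± 0.43, ugt-26 by 1.57 ± 0.35, ugt-47 by 1.47 ± 0.22, ugt-42 by 1.47 ± 0.27, ugt-43 by 1.27 ± 0.15 and ugt-39 by 1.25 ± 0.22. The largest range in wild type at 20C was that of ugt-19 with 2.46 ± 0.27 (adjusted p = 0.00035). There ugt-11, ugt-10, ugt-59, ugt-25 and ugt-20 had ranges of 1.92 ± 0.29, 1.48 ± 0.30, 1.39 ± 0.26, 1.34 ± 0.19 and 1.29 ± 0.12. The most abundant member did not cycle by this test: ugt-22 had ranges of 0.47 ± 0.18, 0.28 ± 0.17 and 0.14 ± 0.27 in lin-4, wild type at 25C and wild type at 20C (adjusted p = 0.12, 0.43 and 0.91). Nor were ugt-46 (0.63 ± 0.09, 0.39 ± 0.17 and 0.36 ± 0.15) and ugt-16 (0.55 ± 0.15, 0.12 ± 0.19 and 0.27 ± 0.19) called. ugt-58 passed in lin-4 with 1.1 ± 0.11 and had 0.84 ± 0.29 and 0.90 ± 0.18 in the wild-type series.

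Fitted peaks were set against that of mlt-10, a gene expressed around the molt, and are given as a percentage of the cycle after its peak, without a test. Peaks were spread over the cycle. Of the 19 in wild type at 20C, 12 lay between 34.1% (ugt-25) and 51.1% (ugt-12), among them ugt-29 at 40.2%, ugt-19 at 44.0%, ugt-62 at 45.1%, ugt-2 at 47% and ugt-55 at 47.6%. The cuticle collagen gene col-39 peaked there at 38.3%. ugt-5, ugt-10 and ugt-6 came earlier, at 2.0, 8.1 and 10.4%. ugt-60, ugt-57, ugt-39 and ugt-59 came later, at 62.6, 71.7, 72.1 and 87.4%, where nhr-23, the gene of a nuclear receptor needed for molting, peaked at 71.9%.

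The 6 members called in every series peaked in the same order in lin-4 and in wild type at 20C, and at 25C ugt-2 came just before ugt-29. Peak times depend on the fitted period, and distances between them were not tested. At 25C only 2 of the 5 reference transcripts were called as cycling, against 5 of 5 in each of the other series. mlt-10, col-39 and lin-42 were not called there, so the 25C percentages are less certain. ugt-6 peaked at 5.8% in lin-4, 6.5% at 25C and 10.4% in wild type at 20C. ugt-29 lay at 31.8, 40.7 and 40.2%, ugt-2 at 42.5, 40.3 and 47%, ugt-55 at 44.8, 44.4 and 47.6%, ugt-60 at 60.4, 63.6 and 62.6% and ugt-57 at 68.9, 68.2 and 71.7%.

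**Figure D4:**
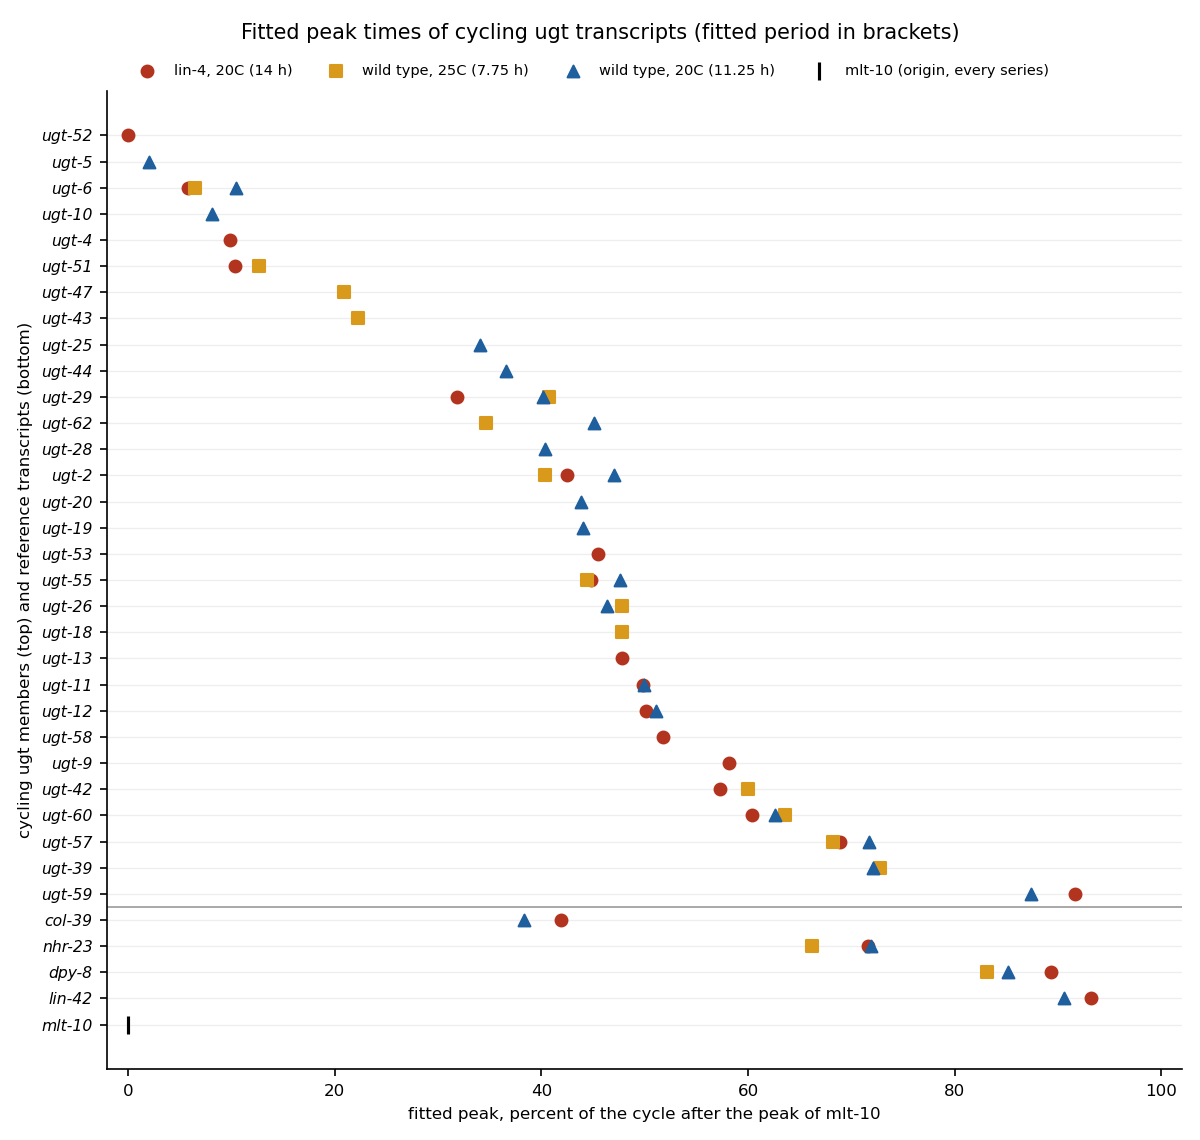
Fitted peak of each cycling ugt member (top) and of 5 reference transcripts of the molting cycle (bottom), as percent of the cycle after the fitted peak of mlt-10; symbols stand for lin-4, wild type at 25C and wild type at 20C, and a symbol is drawn where the member was called in that series. ugt-6 lies at 5.8 to 10.4%, ugt-2 and ugt-55 lie at 40.3 to 47.6% and ugt-57 at 68.2 to 71.7%; at 25C mlt-10 itself was not called, so that origin is less certain.

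These calls depend on the fitted cycle. With a period 1 h shorter, 0 members were called by limma at 25C, beside 2 of all 12980 genes. In wild type at 20C 11 were then called, beside 1244 of 12767. With all times from 0 h, 11 were called in lin-4, beside 1316 of 13075 genes. The counts with these times were 1 at 25C, beside 10 of 13108, and 6 in wild type at 20C, beside 925 of 13047. In lin-4 the count was 9 with periods limited to 12 h, beside 1155 of 12857 genes.

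Beside the cycle, members drifted along the larval stages, and the drift is given as the fitted linear change over the window. At 25C, 14 of 57 members rose and 8 fell, against 11.1% of all genes called higher and 16.7% called lower. At 20C, in wild type, 14 of 55 rose and 7 fell, against 9.45% and 16.4%. The median change over the members was 0.34 log2 in both series, while that over all genes was -0.14 at 25C and -0.09 at 20C. Rescaling the libraries by median ratios moved the all-gene medians to 0.07 and 0.09, and the split of the members became 20 higher and 5 lower at 25C and 18 higher and 5 lower at 20C, so directions here are relative to that shift.

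ugt-29 rose by 3.02 ± 0.46 at 25C and 2.06 ± 0.28 at 20C, ugt-26 by 2.27 ± 0.44 and 2.31 ± 0.25, ugt-62 by 2.00 ± 0.28 and 3.07 ± 0.58, ugt-16 by 1.94 ± 0.36 and 1.33 ± 0.36, ugt-1 by 2.48 ± 0.19 and 1.12 ± 0.24, and ugt-47 by 1.31 ± 0.32 and 1.29 ± 0.29. ugt-1, for example, was at 1.98 RPKM at 4.5 h and 18.2 RPKM at 28.5 h at 25C, and at 11.5 RPKM at 6 h and 30.5 RPKM at 38 h at 20C. ugt-65 (2.16 ± 0.52), ugt-6 (2.12 ± 0.50), ugt-25 (1.88 ± 0.55), ugt-17 (1.31 ± 0.33) and ugt-28 (1.26 ± 0.33) rose in the 25C series. ugt-19 (2.70 ± 0.50), ugt-12 (1.44 ± 0.24), ugt-64 (1.21 ± 0.16), ugt-10 (1.15 ± 0.36) and ugt-30 (1.06 ± 0.28) did so at 20C. The call of ugt-10 was lost without the 6 h library. At 38 h ugt-10 was at 4.31 RPKM in this population and at 0.254 RPKM in the other wild type at 20C. The call of ugt-30 was lost in 3 of 17 fits that left out 1 library and without the cosine and sine. ugt-2 was called in both series, with 1.12 ± 0.37 at 25C and 1.14 ± 0.28 at 20C. Both calls were lost without the cosine and sine and with all times from 0 h. In fits that left out 1 library the call of ugt-2 was lost in 3 of 17 at 25C and in 1 of 17 at 20C. ugt-19 was also called at 25C, with 1.07 ± 0.39, a call lost in 6 of 17 such fits.

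Members that declined were high in early larvae. ugt-54 was at 12.5 RPKM at 4.5 h and 2.65 RPKM at 28.5 h at 25C, and at 14.5 RPKM at 6 h and 1.75 RPKM at 38 h at 20C, a change of -2.10 ± 0.26 and -2.40 ± 0.25. ugt-52 changed by -1.38 ± 0.33 at 25C and -2.15 ± 0.28 at 20C, and ugt-45 by -1.68 ± 0.26 and -1.21 ± 0.25. ugt-4 changed by -2.24 ± 0.24 at 20C, and ugt-39 by -1.76 ± 0.55 and ugt-38 by -1.20 ± 0.29 at 25C. The falls of ugt-57 (-2.17 ± 0.88, adjusted p = 0.049), ugt-9 (-1.18 ± 0.47, adjusted p = 0.048, beside -1.21 ± 0.42 at 20C) and ugt-55 (-1.09 ± 0.42, adjusted p = 0.043) at 25C were near the threshold and lost their call in 11, 12 and 10 of 17 fits that left out 1 library. Without the 6 h library 9 members rose and 4 fell at 20C, beside 1187 and 2036 of all genes, against 1206 and 2100 with it. Without the 4.5 h library 3 members fell at 25C, beside 2096 of all genes, against 2164 with it. ugt-22 (0.81 ± 0.24 at 25C, 0.25 ± 0.34 at 20C), ugt-58 (0.34 ± 0.36 and 0.63 ± 0.20) and ugt-46 (-0.44 ± 0.19 and -0.36 ± 0.17) had no called drift. Germline markers rose with age in both series, 4 of 4 called, with sums of 21.9 to 253 RPKM at 25C and 16.96 to 224 RPKM at 20C. Neuron markers fell in 3 of 4, and the part of either in the ugt drift was not tested.

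Temperature was compared after multiplying 25C times by 1.3, over 16 libraries at 25C and 17 at 20C. Of the factors tried from 1.1 to 1.9, this one gave the highest mean correlation between the series. The fitted periods, 7.75 h at 25C and 11.25 h at 20C, call for a larger factor, but the model held 1 cycle of 11.25 h. Cycling members may thus be compared at unequal phases, and the part of this in the differences was not tested. Of 58 members tested, 3 were higher and 3 lower at 25C, against 1.18% of all genes called higher and 0.513% called lower. The median difference was 0.04 log2 over the members and 0.08 over all genes. The most abundant members were not called: ugt-22 differed by 0.05 ± 0.10, ugt-58 by -0.08 ± 0.07, ugt-46 by -0.06 ± 0.06, ugt-12 by -0.09 ± 0.08 and ugt-16 by -0.01 ± 0.09. The signs of ugt-22, ugt-12 and ugt-16 turned under at least 1 other setting.

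The neighbours ugt-43 and ugt-44 on chromosome IV were both higher at 25C. ugt-43 had a lowest, median and highest level of 1.21, 2.81 and 5.91 RPKM at 25C and of 0.156, 0.418 and 1.30 RPKM at 20C, so the groups barely overlapped (1.34 ± 0.12, adjusted p = 3.5e-10). Its mean was 3.03 RPKM at 25C and 0.538 RPKM at 20C. It thus passed the filter of 1 RPKM only through the group where it is high, and the small overlap is a description. ugt-44 had 9.48, 18.2 and 35.0 RPKM at 25C and 4.74, 6.36 and 21.3 RPKM at 20C, overlapping at their ends (1.09 ± 0.11, adjusted p = 6.8e-09). The call of ugt-44 was lost with rescaled libraries and over aligned times up to 22 h, as was that of ugt-10 over those times. In the other 20C libraries from 6 h on, those of lin-4 and of the 38 to 48 h wild type, ugt-43 lay between 0.211 and 1.79 RPKM.

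ugt-1 and ugt-62 were lower at 25C. ugt-1 had 2.47, 6.70 and 19.9 RPKM at 25C and 10.8, 17.2 and 33.9 RPKM at 20C (-1.32 ± 0.13, adjusted p = 6e-09). ugt-62 had 11.2, 32.1 and 69.0 RPKM at 25C and 19.8, 64.8 and 226 RPKM at 20C (-1.13 ± 0.17, adjusted p = 4.8e-06). Both pairs of ranges overlapped.

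The remaining calls were ugt-13 higher and ugt-10 lower at 25C, and both genes also differed between the wild-type populations at 20C. The 25C series was not tested against the second of these, which starts at 38 h. ugt-13 was at 1.13 to 31.4 RPKM at 25C (median 8.94) and at 0 to 1.55 RPKM in that 20C population (median 0.571), a difference of 2.62 ± 0.29 (adjusted p = 2.9e-08). In the other wild-type population at 20C it was at 3.29 to 33.1 RPKM, above every value of the first. ugt-10 was at 0.062 to 1.57 RPKM at 25C and at 0.544 to 7.49 RPKM in the first 20C population (-1.49 ± 0.22, adjusted p = 2.3e-06), but at 0.102 to 0.929 RPKM in the second. The means of ugt-13 in the first 20C population (0.656 RPKM) and of ugt-10 at 25C (0.437 RPKM) lay below the filter of 1 RPKM. Each gene passed it only through the group where it is high. At 38 h, in the same genotype, temperature and hour, ugt-13 was at 6.36 RPKM in the second population and 0.571 RPKM in the first, and ugt-10 at 0.254 and 4.31 RPKM. ugt-43, ugt-44, ugt-1 and ugt-62 differed there by -0.38, 0.15, 0.61 and -0.34 log2. Epidermis markers were lower at 25C in 3 of 5 genes tested (dpy-8, dpy-7 and rol-6), with sums of 61.2 to 2970 RPKM at 25C and 51.0 to 2181 RPKM at 20C, and 0 of 10 intestine markers were called in either direction. Their part in the ugt results was not tested.

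**Figure D5:**
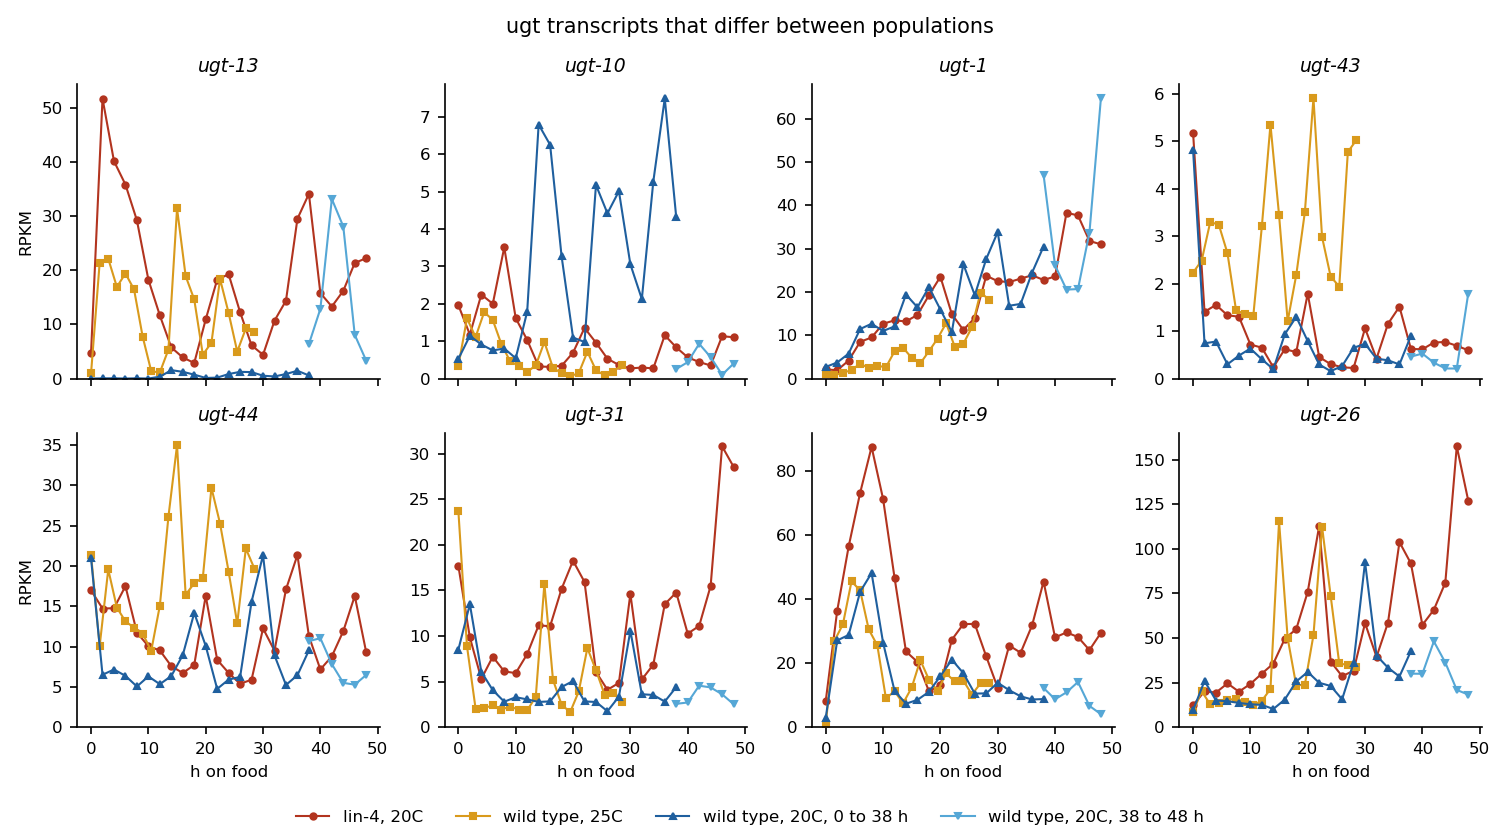
RPKM against hours on food for 8 ugt members that were called between temperatures or between lin-4 and wild type; points are single libraries, joined within a population. ugt-13 stays at or below 1.55 RPKM and ugt-10 reaches 7.49 RPKM in the 0 to 38 h wild-type population at 20C, and ugt-13 is above 1.55 RPKM and ugt-10 at or below 0.929 RPKM in the 38 to 48 h wild type; ugt-31, ugt-9 and ugt-26 lie above wild type in lin-4 after 38 h.

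Larvae of lin-4 were set against wild type at equal labelled times, which need not be equal stages, against the same first 20C population for 6 to 38 h (17 pairs) and against the second one for 38 to 48 h (6 pairs). In the earlier window 4 of 57 members were higher and 1 lower in lin-4, against 0.373% of all genes called higher and 0.77% called lower. In the later window 7 of 54 were higher and 0 lower by limma (1 at an unadjusted p under 0.05, and 0 with a pseudocount of 0.1), against 1.19% and 2.65%. That last share rests on single pairs: 346 genes were lower with all pairs, and 75 without the 44 h pair, 97 without 42 h, 122 without 46 h and 135 without 48 h, while 0 members were lower in each of these fits. The median difference over members was 0.27 and 0.47 log2 in these windows, against 0.09 and 0.12 over all genes. Rescaling moved the all-gene medians to -0.01 in both windows, and the members' counts were then 3 higher and 1 lower, and 6 higher and 0 lower.

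ugt-31, ugt-29 and ugt-9 were higher in lin-4 in both windows. These use different wild-type populations but the same lin-4 population, whose 38 h library is in both. ugt-31 had a lowest, median and highest level of 4.09, 8.01 and 18.3 RPKM in lin-4 and 1.74, 3.28 and 10.6 RPKM in wild type from 6 to 38 h, and was higher in 17 of 17 pairs (1.16 ± 0.13, adjusted p = 5.6e-06). From 38 to 48 h it had 10.3, 15.1 and 30.8 RPKM in lin-4 and 2.51, 3.15 and 4.55 RPKM in wild type, without overlap (2.06 ± 0.28, adjusted p = 0.0073). ugt-29 was higher in 17 of 17 pairs (1.33 ± 0.20, adjusted p = 7.4e-05) and later had 24.9, 45.1 and 83.1 RPKM in lin-4 and 9.84, 15.1 and 17.1 RPKM in wild type, again without overlap (1.65 ± 0.30, adjusted p = 0.016). ugt-9 was higher in 15 of 17 pairs (1.02 ± 0.17, adjusted p = 0.00016) and later had 24.1, 28.8 and 45.4 RPKM in lin-4 and 4.02, 9.77 and 14.1 RPKM in wild type (1.67 ± 0.20, adjusted p = 0.0061). Its earlier call lay close to the minimum size and was lost with rescaled libraries, from 6 to 20 h and in 6 of 17 fits without 1 pair.

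ugt-26, ugt-63, ugt-41 and ugt-24 joined them in the later window. Each was higher in 6 of 6 pairs and without overlap of the groups. This describes members picked by their call and adds no support to it, as the share over all genes was not counted. ugt-26 had 57.3, 86.4 and 158 RPKM in lin-4 and 18.2, 29.9 and 48.1 RPKM in wild type (1.61 ± 0.36, adjusted p = 0.025). ugt-63 differed by 1.28 ± 0.24, ugt-41 by 1.27 ± 0.11 and ugt-24 by 1.02 ± 0.19. The calls of ugt-26 and ugt-24 were each lost in 4 and in 3 of the 6 fits without 1 pair, that of ugt-24 also with rescaled libraries, and that of ugt-29 without the 44 h pair. ugt-16 was 0.73 ± 0.13 and 0.75 ± 0.14 higher in the 2 windows (adjusted p = 0.0003 and 0.017), below the minimum size. ugt-22 differed by 0.38 ± 0.12 and 0.10 ± 0.10, ugt-62 by -0.41 ± 0.26 and -0.24 ± 0.34, ugt-46 by 0.25 ± 0.07 and 0.53 ± 0.07, ugt-58 by 0.10 ± 0.13 and 0.29 ± 0.24 and ugt-12 by -0.08 ± 0.17 and 0.09 ± 0.20. Intestine markers were called in 0 of 10 genes in either window, and 1 of 6 epidermis markers was lower in lin-4 in the later one (bli-1, -4.82 ± 1.32), with sums of 550 to 1420 RPKM in lin-4 and 299 to 1658 RPKM in wild type. Body wall muscle markers, of which 0 of 4 were called by limma (3 at an adjusted p under 0.05, below the minimum size), summed to 2134 to 2360 RPKM in lin-4 and 2736 to 3053 RPKM in wild type in that window, without overlap. The part of these lists in the ugt results was not tested.

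The other calls of the earlier window were again ugt-13 and ugt-10, and this comparison shares its wild-type libraries with the one between temperatures. ugt-13 had 2.87, 12.2 and 35.8 RPKM in lin-4 and 0, 0.571 and 1.55 RPKM in wild type, without overlap (3.09 ± 0.29, adjusted p = 1.2e-06). ugt-10 had 0.271, 0.693 and 3.51 RPKM in lin-4 and 0.544, 3.27 and 7.49 RPKM in wild type (-1.10 ± 0.28, adjusted p = 0.0061), and was lower in 13 of 17 pairs. Its call was lost from 6 to 20 h. Here too ugt-13 passed the filter through lin-4 alone (mean 0.656 RPKM in wild type) and ugt-10 through wild type alone (mean 0.933 RPKM in lin-4). From 38 to 48 h, against the second wild-type population, neither was called: ugt-13 had 13.3, 18.8 and 34.1 RPKM in lin-4 and 3.29, 10.5 and 33.1 RPKM in wild type, and ugt-10 stayed at or below 1.13 RPKM in both.

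Members lie side by side in the genome more than once. By gene order in the WBcel235 annotation, 29 of the 64 formed 11 runs of neighbours, the longest being ugt-25, ugt-26, ugt-27 and ugt-28 on chromosome I and ugt-3, ugt-4, ugt-5 and ugt-6 on chromosome V. Correlations of log2 values over the 71 libraries, which share populations and time and are given as a description, had a median of 0.33 over 21 pairs within runs and of 0.09 over 1809 other pairs of the members that reach 1 RPKM. Within runs they ran from 0.83 for ugt-19 and ugt-20 and 0.81 for ugt-43 and ugt-44 to -0.62 for ugt-16 and ugt-18. That last pair of neighbours on chromosome V is the one where ugt-16 rose and ugt-18 fell with feeding.

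The closest pair of all was ugt-38 and ugt-39 with 0.98 over the 71 libraries, and 0.98, 0.98 and 0.97 within lin-4, wild type at 25C and wild type at 20C after arrest. ugt-39 was the higher one, with a mean of 9.20 RPKM against 1.36 RPKM for ugt-38. ugt-19 and ugt-62, on chromosomes IV and III, had 0.86 over all libraries and 0.93, 0.85 and 0.99 within the populations. No source used here says how reads matching several alike genes were divided, so values of near-identical members may hold shared reads.

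Other genes of the pathway were taken from lists of known functions. Of 8 genes for UDP-sugar supply, 2 were higher in fed than in arrested larvae, against 8.86% of all genes. They were gale-1 (2.34 ± 0.20), the epimerase between UDP-glucose and UDP-galactose, and sqv-4 (1.25 ± 0.17), the dehydrogenase that makes UDP-glucuronic acid. Of the 8, 3 cycled in wild type at 20C, against 13.7% of all genes: D1005.2 by 1.56 ± 0.30, gale-1 by 1.12 ± 0.24 and sqv-4 by 1.04 ± 0.18. The same 3 were called in lin-4, with 1.77 ± 0.35, 1.1 ± 0.25 and 1.05 ± 0.20, and D1005.2 at 25C with 2.52 ± 0.45, against 13.5% and 10.9% of all genes. None of the 8 was called by limma between temperatures or between lin-4 and wild type.

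Of 12 regulators of detoxification genes, 2 fell with feeding, against 10.1% of all genes, and none cycled. Those that fell were the nuclear receptor gene nhr-48 (-1.47 ± 0.17) and wdr-23 (-1.12 ± 0.19), whose product restrains the stress factor SKN-1. The aryl hydrocarbon receptor gene ahr-1 and its partner aha-1 drifted downward, by -2.34 ± 0.15 and -1.34 ± 0.09 at 25C and by -2.24 ± 0.21 and -1.15 ± 0.11 at 20C. Of the 12 regulators, 2 were called lower at 25C and 3 at 20C, against 16.7% and 16.4% of all genes. Of the export pumps of the mrp and pgp families, 3 of 21 rose in fed larvae, against 8.86% of all genes: mrp-4 by 2.23 ± 0.14, pgp-9 by 1.54 ± 0.15 and pgp-12 by 1.09 ± 0.16. Cycling pumps were pgp-14, pgp-6, pgp-10, pgp-5, pgp-9 and pgp-7 in all 3 series, led by pgp-14 with 2.50 ± 0.65 in lin-4, 3.11 ± 0.65 at 25C and 2.87 ± 0.37 in wild type at 20C. These were 6 of 22, 6 of 21 and 6 of 22 pumps tested, against 13.5, 10.9 and 13.7% of all genes. One pump, pgp-5, was higher in lin-4 in both windows, by 1.31 ± 0.25 and 2.10 ± 0.53, out of 22 and 21 tested, against 0.373% and 1.19% of all genes. None of these lists was tested as a set.

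The cyp and gst families of detoxification genes went both ways with feeding, where the ugt family had 21 higher and 3 lower of 61. Of 60 cyp genes tested, 10 rose and 13 fell in fed larvae, with a median of -0.09 log2. Of 42 gst genes 8 rose and 15 fell, with a median of -0.39. Over all genes 8.86% were called higher and 10.1% lower, with a median of -0.15. In wild type at 20C, 16 of 49 cyp and 5 of 35 gst genes tested cycled, beside 19 of 55 ugt genes and 13.7% of all genes. These families were not tested against each other.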

How the data were processed

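The authors deposited 1 table of RPKM values for all libraries, for which the submitters' processing notes name the aligner BWA (version 0.5.9); for the genome build, the gene models, the way reads were counted and strand, no source used here gives an entry. Empty cells (15.25%) were taken as 0, and entries without a gene name (1.578 to 3.032% of the RPKM of a library) were left out. No column was left unused. Depth is an estimate: RPKM steps of 95.34% of 2599 low genes came out as whole reads within 0.001. Its absolute scale was the most common value over 1836 genes with 1 transcript in the WBcel235 annotation, and 45 of them agreed on it. The gene lengths used for the RPKM are unknown and no count test was run.

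Values were tested as log2(RPKM + 1) with limma (version 3.58.1, under R 4.3.3), over genes with a mean of at least 1 RPKM in the libraries compared. A gene with a mean below 1 RPKM in 1 group can thus pass through the other group alone. Among the feeding calls this was so for ugt-63, ugt-38 and ugt-36. Feeding had population as a block and lin-4 against wild type had labelled time. Samples of the same population deviated together in 3 of 3 pairs for both feeding tests, those of the same time in 14 of 17 pairs for 6 to 38 h and in 1 of 6 pairs for 38 to 48 h. Cycling was tested beside a spline of time with 3 degrees of freedom, or beside a line as an alternative. Drift came from a separate model, with a linear term of time beside the cosine and sine and no spline. Temperature had a spline of 4 degrees of freedom plus the cycle. The tests were tried on simulated data with known changes. Named members were, per test, up to 12 called in each direction by size and the 6 with the highest mean; further names are descriptions chosen after their values were seen. The members and lists were chosen with earlier results of these data known. Overlap of groups and counts of pairs are descriptions of named members, and their share over all genes was not counted. Python 3.11.15, pandas 2.3.3 and Matplotlib 3.10.9 were used for tables and figures. Alternatives are described in the closing section.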

Additional observations from a re-analysis of the deposited data

How the results depend on the processing

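Of 170 results for named members, 1225 values under alternative settings were computed, of which 1089 kept direction and call, 121 lost the call, 5 gained it and 10 turned direction. Those that turned were the drift of ugt-57 at 25C with all times from 0 h (0.679); between temperatures ugt-12 up to 22 h (0.055), ugt-16 after 22 h (0.183) and ugt-22 with rescaling (-0.051), a factor 0.1 higher (-0.01) and times up to 22 h (-0.074); between lin-4 and wild type from 6 to 38 h ugt-12 at 6 to 20 h (0.036) and ugt-58 with rescaling (-0.009), and from 38 to 48 h ugt-12 (-0.051) and ugt-22 (-0.043) with rescaling. None of these was called, apart from ugt-57, and the cause was not tested. The fits over either part of the aligned window had a spline of 2 degrees of freedom. Members called higher at the first time on food numbered 10 at a mean of at least 5 RPKM, where fewer genes are tested, and 8 to 15 without 1 population; those called lower numbered 2 at that mean, 2 with a pseudocount of 0.1 and 1 to 7 without 1 population. Members lower in fed larvae numbered 2 to 5 without 1 population. Cycling members numbered 11 with a period 1 h shorter and 6 with all times in wild type at 20C; 9 with a period 1 h longer, 0 with one 1 h shorter and 1 with all times at 25C; and 11 at a mean of at least 5 RPKM, 11 with all times and 9 with periods up to 12 h in lin-4. Members drifting lower at 25C numbered 5 without a filter, 3 at a mean of at least 5 RPKM, 5 with rescaling and 3 to 9 without 1 library. At 20C, leaving out 1 library gave 9 to 15 drifting higher and 4 to 9 lower. Members lower in lin-4 from 6 to 38 h numbered 0 at a mean of at least 5 RPKM and 0 at 6 to 20 h. Leaving out single libraries of the time courses was chosen after seeing the data. Without the replicate block, 14 members were called higher and 4 lower at the first time, 18 and 3 in fed larvae, 4 and 1 in lin-4 from 6 to 38 h and 7 and 0 from 38 to 48 h.

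Counts over all genes moved by more than 1.5 times under several settings. At the first time 1003 were higher, against 344 without the 25C population and 524 without lin-4, and 947 lower, against 298 and 374. Cycling genes numbered 1745 in wild type at 20C, against 925 with all times; 1412 at 25C, against 403 with a longer period, 2 with a shorter one, 874 beside a line, 10 with all times and 809 without the 13.5 h library; and 1742 in lin-4, against 1155 with periods up to 12 h. At a mean of at least 5 RPKM, drifting genes numbered 794 higher and 1274 lower at 20C, against 1206 and 2100 (3260 lower with all times), and 944 and 1296 at 25C, against 1447 and 2164. With a pseudocount of 0.1, 254 genes were higher and 144 lower at 25C, against 152 and 66 (167 lower up to 22 h, 42 after), 107 were higher in lin-4 from 6 to 38 h, against 48, and 239 higher and 655 lower from 38 to 48 h, against 156 and 346. In lin-4, 48 were lower at 6 to 20 h and 60 without the block, against 99, and from 38 to 48 h 97 were higher with rescaling, 110 lower at a mean of at least 5 RPKM and 104 lower without the block; leaving out 1 pair gave as few as 103 higher, without 48 h, and 75 lower, without 44 h. Rescaling moved the median of all genes in fed larvae from -0.15 to 0.00. With 1 library per time point and 12.3 to 36.5 M reads, low values rest on few reads: 1 RPKM stands for an estimated 47.1 reads of ugt-10 and 44.9 reads of ugt-43 at the median depth.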

Other observations

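One library of the 25C series, that of 15 h, held high values of several members. ugt-18 was at 21.6 RPKM there, against 2.7 RPKM at 13.5 h and 4.2 RPKM at 16.5 h. ugt-26 was at 115.5 RPKM and ugt-31 at 15.7 RPKM, with 21.4 and 3.32 RPKM at 13.5 h and 49.9 and 5.19 RPKM at 16.5 h.

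ugt-43, called higher at 25C, had its highest 20C values in arrest: its values at 0 and 2 h were 5.19 and 1.41 RPKM in lin-4, and 4.82 and 0.742 RPKM in wild type.

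The course of ugt-10 followed that of ugt-6 in the 0 to 38 h wild-type population and ran against it elsewhere. Across libraries after arrest, which share a time course, the correlations were -0.735 in lin-4 (n = 22), -0.851 at 25C (n = 17) and 0.859 in wild type at 20C (n = 17). For ugt-13 and ugt-6 they were -0.427, -0.661 and 0.88. The difference was not tested.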
